A study of Mus musculus with 2 samples.

Results

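The clustered protocadherin window on mouse chromosome 18 was represented by 36 of the 90535 non-control probes of the array. Its members were all non-control probes lying wholly between positions 36800000 and 38100000 of build mm8, a stretch of 1.3 Mb that, by the rule used here, holds the alpha, beta and gamma clusters. All 36 probes fell into 10 of the 23738 restriction fragments listed in the authors' deposited table, and these 10 fragments are numbered F1 to F10 from left to right. The rule that picks the members uses positions alone. The array files give positions and no gene names, and the RefSeq gene table at hand is on build GRCm38, so the gene that each fragment lies in was not determined. That table lists 14 alpha genes (Pcdha1 to Pcdhac2), then 22 beta genes (Pcdhb1 to Pcdhb22), then 22 gamma genes (Pcdhga1 to Pcdhgc5, 1 of them a pseudogene) in this order along the chromosome.

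Clustered protocadherins are cell-surface adhesion proteins of neurons. In the alpha and gamma clusters, each variable exon has its own promoter and is spliced to constant exons shared by its cluster, whereas each beta gene is a single-exon gene. Neurons express different combinations of isoforms, which mark them individually and keep branches of the same cell apart. DNA methylation of the isoform promoters is known to accompany their silencing, which makes the region a frequent object of methylation studies in brain.

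Genomic DNA came from the hypothalamus of male and female C57BL/6 pups on postnatal day 10. PVH samples were taken from the paraventricular nucleus and ARH samples from the arcuate nucleus. Each DNA sample was a pool of 7 dissected pieces, so differences between pieces cannot be seen. In DNA from many cells, a share of cells and a methylation level per cell cannot be told apart. The sample names give ARH for the second nucleus, while the series title and a tissue label give the ventromedial nucleus, and the name ARH is kept here. Each of 2 arrays compared PVH with ARH, and the arrays are labelled biological replicates: PVH carried Cy5 and ARH Cy3 on replicate 1, and PVH carried Cy3 and ARH Cy5 on replicate 2. The labels do not say whether the pools of the replicates came from separate animals. The p-values thus rest only on the spread between these arrays, which the fragment test pools over all fragments.

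The assay, methylation-specific amplification, started from 500 ng of DNA. Unmethylated CCCGGG sites were first removed with SmaI, which makes blunt ends. The methylated sites were then opened with XmaI, whose overhangs take the adaptors for PCR, so fragments methylated at both ends are amplified. A fragment's signal therefore reads the 2 sites at its ends, and says nothing of CpGs between them or of sequence without such sites. The signal also depends on the probe and on fragment length, so it is no absolute methylation level, and signals of different probes are not on a common scale.

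The 10 fragments lay at only 5 places in the window. F1 (36857034 to 36858901) and F2 (36858902 to 36860052) touch each other and share a restriction site. F3 (37132579 to 37133495) and F4 (37599875 to 37601845) stand alone. F5 (37946001 to 37946418), F6 (37946419 to 37947542), F7 (37947543 to 37948138) and F8 (37948139 to 37948924) form an unbroken run of 2924 bp that holds 16 of the 36 probes. F9 (38088578 to 38090354) and F10 (38090355 to 38090796) are another touching pair. The gaps without a measured fragment were 272526 bp after F2, 466379 bp after F3, 344155 bp after F4 and 139653 bp after F8, so most of the window was not measured. Of 13 bins of 100 kb, 5 held a fragment. The density was nevertheless close to that of the chromosome: 7.69 fragments per Mb in the window and 7.98 per Mb over the rest of chromosome 18.

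Fragments of the window ranged from among the brightest to among the dimmest of the array. With all fragments put in 4 equal classes by the mean signal of both nuclei, 6 of the 10 (F3, F5, F6, F7, F8 and F10) were in the brightest class and 2 (F1 and F2) in the dimmest. F5 lay just past that limit, at percentile 74.3 by PVH alone and 76.4 by ARH alone. The median signal over the 10 fragments was 4856 in PVH and 6229 in ARH. Over the 654 other fragments of chromosome 18 it was 562 in PVH and 564 in ARH, and over the 22262 fragments of the other autosomes 809 in PVH and 799 in ARH. These medians are given as a description, since 8 of the 10 fragments lie in touching runs and probes differ in brightness.

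F10, of 442 bp and 2 probes, was the brightest fragment of the window. Its signal was 37001 on replicate 1 and 26759 on replicate 2 in PVH, against 29446.5 and 31286.5 in ARH, which placed it at percentile 98.2 of all fragments. F3 (917 bp, 4 probes) had 31663 and 21838 in PVH, against 26233.5 and 24045 in ARH, at percentile 96.6. For both, PVH was above ARH on replicate 1 and below it on replicate 2, so the nuclei overlapped.

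In the run, F7 (596 bp) and F8 (786 bp) were the brightest. F7 had 14573 and 13274 in PVH, against 16572 and 18230.4 in ARH. F8 had 12542 and 10952 in PVH, against 14025 and 11777 in ARH. F7 and F8 were at percentiles 91.3 and 88.5. F6 (1124 bp) had 6367 and 6566 in PVH, against 8318 and 8708 in ARH, at percentile 82.2. F5 (418 bp) had 3324 and 4000.5 in PVH, against 4562 and 4556 in ARH, at percentile 75.3. In F5, F6 and F7 both PVH values were below both ARH values, while in F8 the ranges overlapped. With F2, described next, this held for 4 of the 9 fragments with at least 2 tested probes, against 13.6% of all such fragments. Both PVH values were above both ARH values in 0 of 9, against 8.94%.

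The remaining fragments were of middle or low signal. F9 (1777 bp) had 571 and 707 in PVH, against 593 and 754 in ARH, at percentile 45.7, although it touches F10. F4 (1971 bp) had 585 and 398 in PVH, against 527 and 438 in ARH, at percentile 38.7. F2 (1151 bp) had 106 and 217 in PVH, against 237 and 279 in ARH, at percentile 18.6, and both PVH values were below both ARH values. F1 (1868 bp) was at percentile 6.62 on its only tested probe.

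Fragment length moved with signal over the whole array. In 4 equal classes by length, the median signal was 623 in fragments of 200 to 415 bp, 2611 in those of 416 to 781 bp, 1908 in those of 782 to 1321 bp and 229 in those of 1322 to 2000 bp. Set against fragments of the same length class, F9 and F4, both long, were at percentiles 76.1 and 69.7. F10 and F3 were at 94.6 and 97.2, F5 was at 55.3, and F6, F7 and F8 were at 76.2, 77.1 and 87.1. F2 was at 12.5 and F1 at 19.7, so these touching fragments were the ones below the median of their length class. The part of length in the signals was not tested.

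Probes of the same fragment differed in brightness too. In the 15379 fragments with 4 tested probes, the brightest probe was a median of 3.50-fold above the dimmest. Among the 7 such fragments of the window the factor was 2.18 in F6, 2.70 in F3, 2.79 in F5, 2.87 in F9, 3.18 in F7, 5.39 in F8 and 16.5 in F4. F4 thus had the widest range of these 7 fragments. Its left probes, at 37600010 and 37600550, gave 137 to 173 in PVH and 131 to 196 in ARH over both arrays. Its right probes, at 37601285 and 37601786, gave 701 to 3917 in PVH and 884 to 2990 in ARH.

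F1 was measured by its rightmost probe alone. The probes at 36857829, 36858040 and 36858288 read 6.54 to 32.5 in PVH and 4.93 to 19.5 in ARH. The 95th percentiles of the 1196 negative control spots were 95.6 and 71.7 in PVH and 83.9 and 75.1 in ARH on replicates 1 and 2. Of 4 channels, the first of these probes was well above background in 1 and the others in 0, and all 3 were left out, so 33 of 36 probes were tested. The scanner software marked all 33 as well above background in both nuclei on both arrays. By the negative control percentiles, however, the tested probe of F1 was below the limit in ARH on replicate 1 (49.7), and the left probe of F2 was below it in PVH on replicate 1 (86.9).

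The comparison of PVH with ARH asks where methylation at fragment ends differs between the nuclei. None of the 9 window fragments with at least 2 tested probes differed at an adjusted p under 0.05 in limma, against 1.39% of all 22350 fragments tested (311). The fragments that passed with PVH below ARH (211) were 0.944% of the 22350. At an unadjusted p under 0.05 there was 1 of 9, F2, against 6.18% of all fragments. Of the single probes, 0 of 33 passed in limma, against 0.544% of 84708 probes, and 3 of 33 were at an unadjusted p under 0.05, against 5.30%. By the scanner software's own p under 0.01 on both arrays, 0 of 33 probes passed in the same direction, against 2.66% of all probes, and 0 in opposite directions, against 2.4%. In limma every fragment had the same standard error of 0.26 on the log2 scale, pooled over all tested fragments. A fragment's p thus does not reflect how closely its own arrays agreed. The pooled spread also holds a shift between the arrays that moved with brightness, given below, which this fit did not remove. A call needed a mean log2 ratio of at least 0.87 in size, or 1.82-fold. Smaller differences could not pass in that fit.

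F2 had the largest ratio among the 9 tested fragments, with PVH below ARH. Its log2 ratio was -1.17 on replicate 1 and -0.37 on replicate 2, a mean of -0.77 ± 0.57 (SD, n = 2 arrays), or 1.70-fold lower in PVH (limma, adjusted p = 0.13). Its mean was at percentile 1.43 of all tested fragments. The limma 95% interval, based on the standard error shared by all fragments and not adjusted for the number tested, ran from -1.27 to -0.27. F2 was dim, and its 2 probes, at 36859441 and 36859452, overlap by 49 bases, so they are close to 1 measurement of the fragment. They gave -0.76 ± 0.49 and -0.77 ± 0.65 (SD, n = 2 arrays). With a trended robust prior in limma F2 passed at the same ratio (adjusted p = 0.027), as did 2.00% of all fragments, and over all alternatives its adjusted p ran from 0.027 to 0.74.

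F1, which touches F2, had the opposite sign on its only tested probe, at 36858614. PVH read 180.0 on replicate 1 and 100.4 on replicate 2, against 49.7 and 81.0 in ARH. The log2 ratio was 1.85 and 0.30, a mean of 1.08 ± 1.09 (SD, n = 2 arrays), with PVH above ARH on both arrays but by far more on replicate 1. With 1 tested probe, F1 was not among the fragments tested. Where single-probe fragments were admitted it passed (limma, adjusted p = 0.0054), against 1.27% of 23397 fragments. As a single probe it did not pass (limma, adjusted p = 0.16), except with the trended robust prior, where 1.35% of all probes passed. With all 4 probes and no filter on background the mean was 0.41 (limma, adjusted p = 0.98), and the authors' deposited table has 1.44 and 0.27 for F1. The sign of F1 was positive in each of these settings, but those run here all include this probe and are no separate evidence of its sign. On replicates 1 and 2, the probes left out gave 0.73 and -0.68, -0.36 and 0.72, and 0.33 and 0.36. The sign and size of F1 thus rest on 1 dim probe, and the size mainly on 1 array.

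The difference in mean log2 ratio between F1 and F2 was 1.85, larger than in 99.9% of the 5521 touching pairs on the array, whose median difference was 0.15. That value includes an ARH reading of F1 and a PVH reading of F2 below the negative control limits, both on replicate 1. With no filter on background and all 4 probes of F1, an alternative added after seeing the data, the difference was 1.18, at percentile 99.6 of 5405 touching pairs. The pairs within the run had differences of 0.074 for F5 and F6, 0.075 for F6 and F7 and 0.19 for F7 and F8, and F9 and F10 had 0.13. The window's other touching fragments were thus near the array's usual step, and F1 and F2 were not. Both values for F1 and F2 include the low readings, and the array's pairs were not matched to them in signal or number of probes.

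The run F5 to F8 had PVH below ARH on both arrays, by a modest amount. F6 had a log2 ratio of -0.39 on replicate 1 and -0.41 on replicate 2, a mean of -0.40 ± 0.014 (SD, n = 2 arrays), or 1.32-fold lower in PVH. F5 had -0.46 and -0.19, a mean of -0.33 ± 0.19. F7 had -0.19 and -0.46, a mean of -0.33 ± 0.19. F8 was nearest to 0, with -0.17 and -0.11, a mean of -0.14 ± 0.041. No fragment of the run passed in limma (adjusted p = 1.00 for each). The 95% interval of F6 ran from -0.90 to 0.10, so that a PVH signal between 1.87-fold lower and 1.07-fold higher than ARH was not distinguished.

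The ratio of each fragment is the mean of its probes, so the probes of the run restate these values. Probes of a fragment read the same amplified product on the same arrays and are not replicates. The means of the 4 probes ran from -0.37 to -0.27 in F5, from -0.48 to -0.36 in F6, from -0.47 to -0.14 in F7 and from -0.17 to -0.10 in F8. Of these 16 probes, 12 were below 0 on both arrays, against 23.1% of all tested probes. On each array alone, 14 of 16 were below 0. Each array was centred on its median over the tested probes, so as many of all tested probes lay below 0 as above it. Over all tested probes, 26.9% were below 0 on replicate 1 only and 26.9% on replicate 2 only, besides the 23.1% below 0 on both. Shares over all probes do not allow for neighbouring fragments. Touching fragments had ratios of the same direction in 65.7% of 5521 pairs over the array, and in 3 of 5 pairs in the window. The mean over the 16 probes was -0.30 on replicate 1 and -0.30 on replicate 2, or 1.23-fold lower in PVH. The run was singled out after its values were seen and gets no test of its own, and its fragments share restriction sites and are amplified from neighbouring cuts, so they are not independent. With loess on the processed signals the same mean was -0.42 on replicate 1 and -0.18 on replicate 2, and with normexp and no loess -0.24 and -0.39, so the arrays were less close in these settings. The mean of both arrays stayed between -0.32 and -0.28 in these settings and with normexp and loess.

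In the other tested fragments the arrays disagreed or the ratio was near 0. F3 had 0.26 on replicate 1 and -0.14 on replicate 2, a mean of 0.060 ± 0.29 (SD, n = 2 arrays). F10 had 0.32 and -0.23, a mean of 0.045 ± 0.39. F4 had 0.15 and -0.15, and its mean was 0 to 2 decimals with an SD of 0.21. F9 had -0.061 and -0.10, a mean of -0.080 ± 0.027. The probe means ran from -0.055 to 0.16 in F3 and from -0.13 to 0.15 in F4, and were -0.0086 and 0.099 in F10. In F9 the left probes, at 38088582 and 38089023, had means of 0.091 and 0.11, and the right ones, at 38089558 and 38089857, of -0.32 and -0.20. The limma 95% intervals of these 4 fragments spanned 0, from -0.58 at the lowest (F9) to 0.56 at the highest (F3).

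By direction, 6 of the 9 tested fragments (F2, F5, F6, F7, F8 and F9) were lower in PVH on both arrays, against 26.0% of all tested fragments, and none was higher on both, against 22.9%. Of the 33 tested probes, 17 were lower on both arrays, against 23.1% of all probes, and 2 were higher on both, against 23.1%. A further 12 were higher on replicate 1 and lower on replicate 2, against 26.9%, and 2 the other way round, against 26.9%. The run gave 4 of the 6 fragments and 12 of the 17 probes, so these counts are mostly those of 1 stretch of 2924 bp. With loess on the processed signals, 4 of the 9 fragments (F2, F5, F6 and F7) were lower on both arrays, against 29.1%, and with normexp and loess the same 4, against 27.4%. The median log2 ratio of the 9 fragments was -0.14, against 0.03 in 619 other fragments of chromosome 18 and 0.01 in 21280 of the other autosomes. The median size of the ratio, regardless of sign, was 0.14 in the window, 0.16 on the rest of the chromosome and 0.15 on the other autosomes.

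The 3 fragments whose arrays disagreed (F3, F4 and F10) were all higher in PVH on replicate 1 and lower on replicate 2, a pattern found in 25.3% of all tested fragments. None had the opposite pattern, against 25.8%. Since the dyes were swapped, this is a higher Cy5 than Cy3 signal on both arrays. Taken as replicate 1 minus replicate 2, divided by 2, the excess was 0.20 in F3, 0.15 in F4 and 0.28 in F10. The same measure moved with brightness over the array: its median was 0.30 in the brightest of 8 equal signal classes, where 96.3% of fragments were above 0, and -0.16 in the fifth class. F3, F7, F8 and F10 belong to the brightest class, F6 to the next, F5 to the sixth, F9 to the fourth, F4 to the third and F2 to the second. F7, at 0.14, was at percentile 13.0 of its class in this measure and F8, at -0.029, at percentile 2.86. F4, at 0.15, was at percentile 87.3 of its own class.

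Loess, which removes a trend on brightness from each array, reversed the signs of F3 and F10, the brightest fragments, on both arrays. F3 then had -0.10 on replicate 1 and 0.16 on replicate 2, and F10 had -0.076 and 0.13. Their means hardly moved, at 0.032 and 0.027. F8 had -0.36 and 0.056, a mean of -0.15, and F7 had -0.42 and -0.24, a mean of -0.33. The mean ratios of these fragments were about the same with and without loess, while the single-array values depended on it. With 2 arrays, the dye order and the replicate cannot be told apart. F4, of lower signal, kept opposite signs with loess, at 0.22 and -0.21.

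Over the 9 fragments, the ratios of replicates 1 and 2 had Pearson's r = 0.49 as a description, and 0.38 without F2, beside 0.088 over all 22350 tested fragments. With loess on the processed signals r was 0.52, and 0.23 without F2, beside 0.26 over all fragments. With normexp and loess it was 0.40, and 0.26 without F2, beside 0.29. Without F2 the window was thus not above the array in either loess setting. The fragments of the run share sites, and the points share both arrays. The median SD between the arrays was 0.19 in the window, 0.22 on the rest of chromosome 18 and 0.23 on the other autosomes. The ratios here and those of the authors' deposited table for the same 9 fragments correlated with r = 0.987 on replicate 1 and 0.998 on replicate 2. The largest difference between them was 0.21, in F4 on replicate 1.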

How the data were processed

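Scanner files of 2 dye-swapped arrays (96645 spots, design 017202, build mm8) were used. Spot intensities were extracted by the authors with Agilent Feature Extraction 10.5.1.1, per the file headers, while the submitters' processing notes name 9.1.3.1. The deposited processed intensity is background-subtracted, detrended and dye-normalized by a linear factor, per the file headers. The deposited LogRatio (log10 of red over green) equalled the ratio of these intensities within 0.001 for at least 98.7% of probes, and the deposited PValueLogRatio is a p-value per spot from the scanner software. The deposited table gives log2 values for 23738 fragments, with their making and build not given in the sources used here. Its positions held 87109 of the mm8 probe spots wholly within 1 fragment.

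Log2 PVH over ARH was computed from processed signals on both arrays (replicate 2 with its sign reversed for the dye swap), and each array was centred on its median (0.0072 and 0.0061 before centring). Tested probes had to be well above background in 1 or both channels on each array. Control spots and 79 outlier spots were left out. No spot was saturated. Probes were averaged per fragment, with at least 2 tested probes, and tested with limma 3.58.1 (R 4.3.3; lmFit, eBayes, Benjamini-Hochberg over all fragments, 2 arrays, no covariate). Signals are geometric means over tested probes. The number of arrays limits the precision. The test was tried on simulated ratios. Their noise was drawn independently for each array with no trend on brightness, so this trial says nothing of such a trend.

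The window, groups and tests were chosen with earlier results of these data known. The naming rule was every fragment past the threshold, up to 8 per direction with the same sign on both arrays, and the 5 brightest and 5 dimmest, which covered all 10. The files hold median but no mean spot signals, so normexp (offset 50) and the second signal measure used medians. Alternatives were other background correction, normalization, centring, filters, priors, probe summaries, bin widths, a length trend and the deposited log2 values.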

Additional observations from a re-analysis of the deposited data

How the results depend on the processing

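The count of 0 fragments past the threshold in limma held under 11 of 13 alternatives. The number of fragments tested was 9 in most of these. It was 10 with no filter on background and in the deposited table. It was 7 with at least 3 tested probes, where F2 and F10 were left out and so could not pass. It was 1 with a trended robust prior (F2, adjusted p = 0.027) and 1 with single-probe fragments admitted (F1, adjusted p = 0.0054, limma). The count of 0 probes held under 8 of 9 alternatives, including the scanner software's p-values, and was 1 with the trended robust prior (the tested probe of F1). With no filter on background 36 probes were tested, and otherwise 33. Without a replicate no residual degrees of freedom remain, so no count was made. Of 115 alternative values of the 9 tested fragments with both arrays kept, 104 kept direction and side of the threshold, 1 was the F2 call and 10 turned direction, none beyond 0.12 in size. F4 (-1.7e-05 in the chosen processing) was at 0.0028 with loess alone, 0.016 with normexp alone, 0.0079 with both, 0.0066 with no centring, 0.016 with the median over probes, 0.11 with a length trend removed and 0.12 in the deposited table. F9 was at 0.053 with the length trend removed and 0.0017 in the deposited table, and F10 at -0.032 with the length trend removed. On 1 array alone F3, F4 and F10 take either sign. With both arrays F2 ranged from -0.77 to -0.53, F5 from -0.41 to -0.31, F6 from -0.42 to -0.30, F7 from -0.38 to -0.30 and F8 from -0.15 to -0.060. The median percentile of the 10 fragments' signal was 77.6 in PVH, against 76.9 with median minus background signals, 77.9 with no filter and 77.3 to 77.4 on a single array. In ARH it was 80.1, against 79.5 with median minus background signals. The lowest 100 kb bin (-0.77) held F2 as its only tested fragment, as did the lowest bin of 50 and of 200 kb. Its value could therefore not change with bin width. Same signs on both arrays in 6 of 9 fragments were 4 with either loess setting. The agreement with normexp and no loess (6 of 9) and without F2 (5 of 8) was added after seeing the data. The cause of these shifts was not tested. Each ratio is itself a paired comparison of the nuclei within an array, so the fit is already paired and a replicate block adds nothing. Low signal limits F1 and F2.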
